A study of Mus musculus with 20 samples.

Results

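Nucleotide excision repair was examined through 10 genes, Xpa, Xpc, Ddb1, Ddb2, Ercc1, Ercc2, Ercc3, Ercc4, Ercc5 and Ercc6, which were taken by symbol from the 55486 genes of both deposited count tables. All 10 had enough counts to be tested in both tissues. RNA was sequenced from bone marrow and kidney of C57BL/6 mice given oxaliplatin, a platinum drug that forms adducts on DNA, or its vehicle. Each tissue held 5 vehicle-treated and 5 oxaliplatin-treated mice, 20 libraries in all, each from a single mouse. Treatment began at an age of 10 weeks and lasted 8 weeks, with intraperitoneal oxaliplatin at 10 mg/kg in 5% dextrose or with 5% dextrose alone. The methods describe tissue collection for marrow only, from tibia and femur, 6 days past the final injection.

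Nucleotide excision repair cuts out a short stretch of a damaged DNA strand and copies the gap from the intact strand. Damage anywhere in the genome is found by XPC, helped by the DDB1 and DDB2 proteins, while RNA polymerase stalled in a transcribed gene recruits the ERCC6 protein, known as CSB. The TFIIH complex then opens the helix with its ERCC3 and ERCC2 helicases, XPA checks the lesion, and the ERCC5 nuclease and the ERCC1 and ERCC4 nuclease cut on either side of it. The pathway is the main route by which platinum adducts within a strand are removed, and its inherited loss causes xeroderma pigmentosum, Cockayne syndrome and related disorders. In human cells DDB2 and XPC are known targets of the p53 transcription factor.

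Total counts per library ranged from 30660153 to 41140527 in bone marrow and from 24393007 to 30925430 in kidney. In marrow, the summed level of 10 erythroid genes lay between 24850 and 42700 CPM (counts scaled to a common library size) with vehicle, and in kidney that of 8 proximal tubule genes lay between 23810 and 28220 CPM, as the tissue labels state. After oxaliplatin the marrow erythroid sum lay between 3329 and 7882 CPM, and the sum of 14 cell division genes lay between 5836 and 7448 CPM with vehicle and between 2391 and 4443 CPM with oxaliplatin. The sum of 6 adipocyte genes lay between 76.2 and 143 CPM with vehicle and between 492 and 2460 CPM with oxaliplatin, and that of 6 skeletal muscle genes between 9.75 and 103 CPM and between 43.6 and 779 CPM. In kidney the proximal tubule sum was lower after oxaliplatin, between 14390 and 20420 CPM. Of its 8 genes 2 rose and 3 fell, so the lower sum was not shared by the whole list. The sum of 8 macrophage genes in kidney lay between 114 and 146 CPM with vehicle and between 67.8 and 82.5 CPM with oxaliplatin. The library of oxaliplatin marrow mouse 3 stood apart. Its counts differed from those of its group by a chi-square per degree of freedom of 92.9 to 219. Between the other 4 treated marrow libraries the value was 37.1 to 113, and between vehicle marrow libraries 8.54 to 44.0. Marrow values without mouse 3 are given below for some members. For Xpa, Ercc2 and Ercc5 the marrow log2 fold changes without it were -0.07, 0.07 and 0.12. For pathway genes outside the members no values without it are given. In bulk samples fewer cells of a type and less RNA per cell cannot be told apart, and the part these shifts have in the values of the repair genes was not tested.

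Promoter sequences are shown for Ercc1 and Ercc6, the members that passed the test in a tissue and had an entry among the RefSeq promoters used. They cover 250 bases before and 50 bases after the RefSeq start in GRCm38.p6, 5′ to 3′, both on the plus strand, Ercc1 at chr7:19344821-19345120 and Ercc6 at chr14:32513271-32513570. Capitals mark GC boxes (GGGCGG or its complement CCGCCC) and E-boxes (CACGTG), searched on both strands.
Ercc1: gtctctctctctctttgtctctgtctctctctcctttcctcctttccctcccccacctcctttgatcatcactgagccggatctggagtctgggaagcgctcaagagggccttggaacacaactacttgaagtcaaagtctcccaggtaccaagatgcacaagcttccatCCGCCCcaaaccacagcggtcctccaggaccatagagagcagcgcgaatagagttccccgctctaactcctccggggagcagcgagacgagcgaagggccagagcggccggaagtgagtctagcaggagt
Ercc6: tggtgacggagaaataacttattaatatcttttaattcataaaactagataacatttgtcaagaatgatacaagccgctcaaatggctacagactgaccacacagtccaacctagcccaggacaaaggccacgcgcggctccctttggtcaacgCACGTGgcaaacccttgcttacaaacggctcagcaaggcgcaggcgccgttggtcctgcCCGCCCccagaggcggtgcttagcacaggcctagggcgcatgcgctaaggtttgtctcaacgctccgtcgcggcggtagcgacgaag
A GC box was present in 4 of the 7 member promoters with an entry (Ddb1, Ercc1, Ercc2 and Ercc6) and in 35.7% of 32851 mouse promoters of the same length. The E-box stood in the Ercc6 promoter alone among the 7 and in 7.15% of all promoters. CCAAT, or ATTGG on the other strand, was present in 4 of the 7 (Xpa, Ercc2, Ercc4 and Ercc5) and in 37.4% of all promoters. The p53 decamer had no match in these 7 windows and a match in 8.36% of all promoters. These matches describe letters in a window and were not tested as binding sites. Xpc, Ddb2 and Ercc3 had no entry among the promoters used. For Ercc3 this was by choice, as the promoters of its chromosome were left out beforehand. The shares of all promoters given here leave out that chromosome too.

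In vehicle-treated mice the repair genes covered a wide range of levels. Levels are given here per exon length as RPKM, on a scaling shared by all 20 libraries. Ddb1, which encodes the adaptor of CUL4 ubiquitin ligases and serves many other substrates, was the most abundant member in both tissues, at 52.96 ± 5.59 RPKM in marrow and 67.4 ± 3.50 RPKM in kidney (SD, n = 5). Its partner Ddb2, which binds the damaged base and brings the ligase to it, stood at 2.92 ± 0.299 RPKM in marrow and 1.71 ± 0.264 RPKM in kidney. In kidney Ddb2 was the lowest member, with Ddb1 39.5 times higher per length. In marrow the lowest was Ercc5, at 2.42 ± 0.290 RPKM. Between these ends lay Xpc, the damage sensor, at 8.91 ± 0.522 RPKM in marrow and 15.99 ± 1.03 RPKM in kidney. Ercc3 stood at 11.5 ± 1.10 RPKM in marrow and 15.3 ± 0.692 RPKM in kidney, well above Ercc2, the other helicase of the same complex, at 2.98 ± 0.227 and 4.00 ± 0.358 RPKM.

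**Figure D1:**
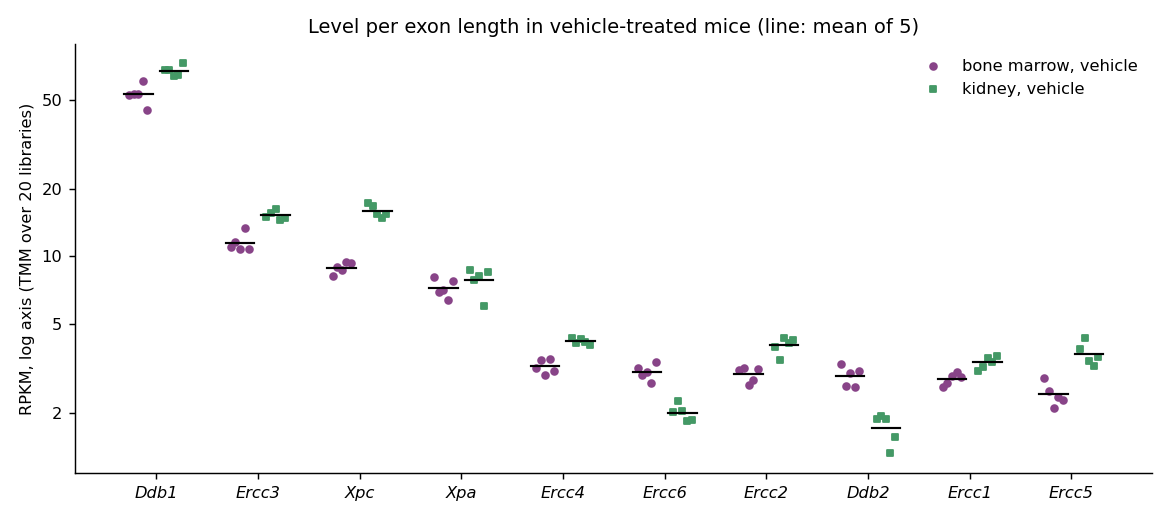
Level of each gene per exon length in vehicle-treated mice (RPKM, log axis, scaled over 20 libraries). Each point is a mouse, circles for bone marrow and squares for kidney, and the line is the mean of 5. Ddb1 stands apart at 52.96 RPKM in marrow and 67.4 RPKM in kidney, and Ddb2 and Ercc6 are the members with higher marrow points.

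With vehicle, 8 of the 10 members differed between marrow and kidney at an adjusted p under 0.05, against 80.7% of the 24321 genes tested in all 20 libraries (42% higher and 38.8% lower in marrow). Ddb2 was 1.71 times higher in marrow (log2 difference 0.77, SE 0.16, edgeR adjusted p = 0.000118) and Ercc6 1.53 times higher (log2 0.61, SE 0.09, edgeR adjusted p = 1.01e-06). The other 6 were lower in marrow, led by Xpc (log2 -0.84, SE 0.07, edgeR adjusted p = 3.21e-10) and Ercc5 (log2 -0.60, SE 0.11, edgeR adjusted p = 3.9e-05). Differences for Ercc2, Ercc3, Ercc4 and Ddb1 lay between -0.43 and -0.35 on the log2 scale. The 2 that did not pass were Xpa (log2 -0.12, 95% interval -0.40 to 0.17) and Ercc1 (log2 -0.24, 95% interval -0.49 to -0.0015). Only part of this pattern held under another scaling. With library size alone 4 members differed, Ddb2, Ercc6 and Xpa higher in marrow and Xpc lower, and the differences of Ddb1, Ercc1, Ercc3 and Ercc4 turned positive. Tissue and library preparation cannot be told apart in this comparison.

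Across all 4 groups, ordered by mean RPKM, neighbouring groups usually overlapped. Xpc was highest in vehicle kidney (15.99 RPKM), then oxaliplatin kidney (15.3), vehicle marrow (8.91) and oxaliplatin marrow (8.74), and only the step between the tissues was free of overlap between mice. For Ddb2 the order was vehicle marrow (2.92 RPKM), oxaliplatin marrow (2.53), oxaliplatin kidney (2.38) and vehicle kidney (1.71), with no overlap at the last step only. Ercc1 ran from oxaliplatin kidney (4.05 RPKM) through oxaliplatin marrow (3.74) and vehicle kidney (3.36) to vehicle marrow (2.84), and again only the last step was free of overlap. In the other 7 members every pair of neighbouring groups overlapped. The same count was not made over all genes, so these counts describe the members only.

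The response to oxaliplatin was small in these genes in both tissues. In marrow 1 of the 10 members changed at an adjusted p under 0.05, Ercc1, which rose, against 33.1% of the 22363 genes tested there (16.3% higher and 16.8% lower). In kidney 3 of 10 changed, Ddb2 and Ercc6 rising and Ercc3 falling, against 29.4% of 19293 genes (14.4% higher and 15% lower). On TMM scaling no member's estimate passed 1.5-fold in either direction: the largest fold changes were 1.27 for Ercc1 in marrow and 1.40 for Ddb2 in kidney. Beyond 1.5-fold, the share of all genes was 23.3% in marrow (11.6% higher, 11.8% lower) and 11.5% in kidney (7.68% higher, 3.81% lower). The median log2 fold change of the 10 members was 0.019 in marrow, where that of all genes was -0.038, and 0.032 in kidney, where it was 0.025. With library size alone in place of TMM scaling the all-gene medians moved to 0.11 and 0.16. Ddb2 in kidney then passed 1.5-fold (log2 0.61, edgeR adjusted p = 0.00498). Small changes are thus read relative to the scaling. The plots by mouse show how far the groups overlapped.

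**Figure D2:**
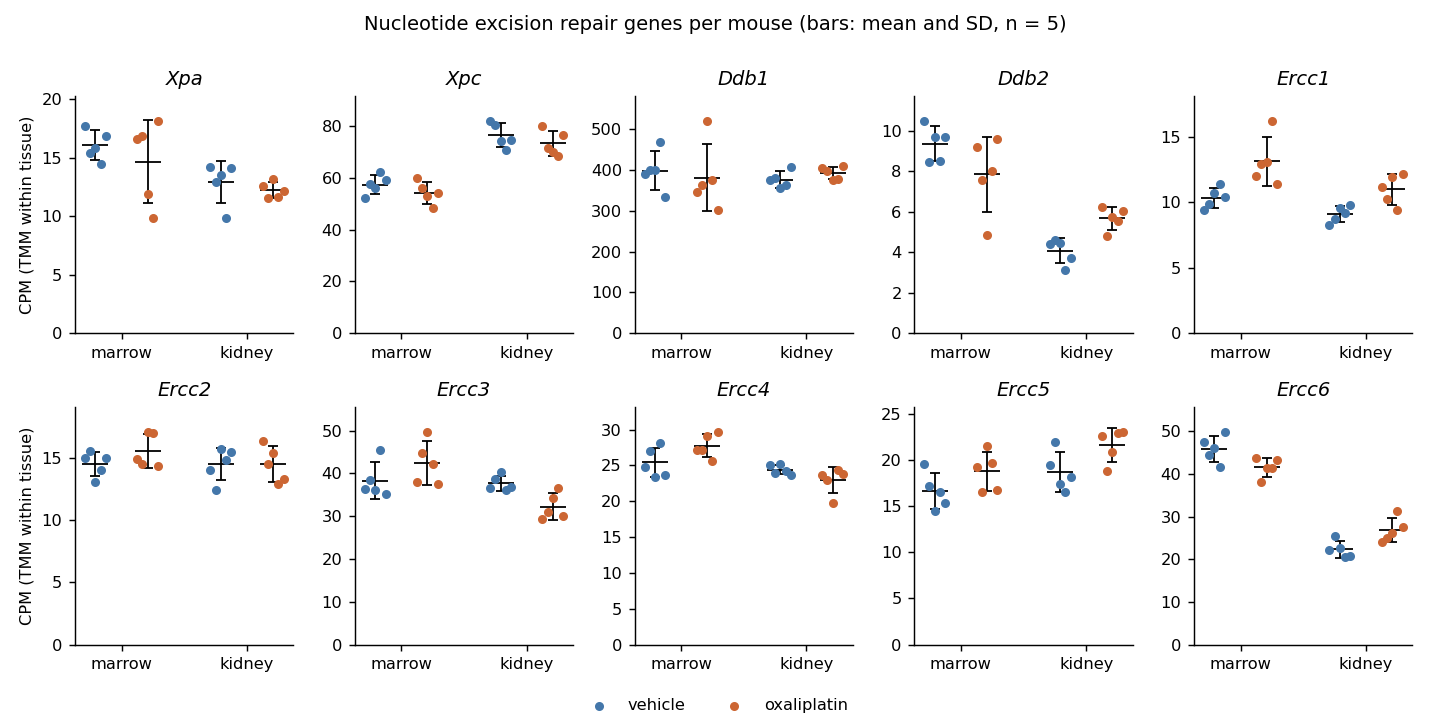
CPM of each of the 10 genes in each mouse, from 0, for vehicle (blue) and oxaliplatin (orange) in bone marrow and kidney, with mean and SD of 5. Each tissue was scaled on its own, so levels are compared within a tissue. Groups are fully apart for Ercc1 in marrow and for Ddb2 in kidney, and overlap in the other 18 comparisons.

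Damage recognition in the whole genome held the member with the largest change in kidney. Ddb2 (ENSMUSG00000002109, chromosome 2 from 91211572 to 91236982, GRCm38) in kidney was measured at 4.41, 4.61, 4.45, 3.14 and 3.73 CPM with vehicle and at 6.25, 4.78, 5.75, 5.54 and 6.06 CPM with oxaliplatin. Every oxaliplatin-treated kidney lay above every vehicle-treated one, which was the only such separation among the members in kidney, where 20.7% of all genes had groups without overlap (9.69% higher, 11% lower). Ddb2 rose from 4.07 ± 0.619 to 5.68 ± 0.569 CPM (SD, n = 5), a log2 fold change of 0.48 (SE 0.14, 95% interval 0.18 to 0.78, edgeR adjusted p = 0.0172). The call held with each of the 10 kidney libraries left out in turn, with log2 fold changes between 0.40 and 0.53 and adjusted p up to 0.0483. In marrow Ddb2 stood at 10.5, 8.47, 9.67, 8.52 and 9.68 CPM with vehicle and at 9.19, 7.55, 4.87, 8.01 and 9.60 CPM with oxaliplatin. There 3 treated mice lay below the vehicle range and the other 2 within it. The log2 fold change in marrow was -0.26 (SE 0.18, 95% interval -0.63 to 0.12, edgeR adjusted p = 0.294). Without oxaliplatin mouse 3 it was -0.12 (SE 0.13, edgeR adjusted p = 0.519), the smallest change among the 10 omissions, which ranged from -0.32 to -0.12. Of Ddb2's exon bases 23.8% overlap Acp2 on the opposite strand, and whether the counting used strand is not given in the sources used here. Acp2 was at 34.4 ± 1.52 and 35.04 ± 2.34 CPM in vehicle and oxaliplatin kidney (log2 0.03, edgeR adjusted p = 0.814).

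Xpc (ENSMUSG00000030094, chromosome 6 from 91489305 to 91515888), whose product is the first to bind many lesions, did not pass the test in either tissue. In marrow its values were 52.1, 57.7, 55.9, 62.2 and 58.9 CPM with vehicle and 59.7, 56.2, 53, 48.3 and 54.1 CPM with oxaliplatin, largely the same range. The fold change was 0.95 with a 95% interval of 0.83 to 1.07 in marrow and 0.96 with an interval of 0.87 to 1.06 in kidney. On TMM scaling a rise above 1.07-fold thus lay outside the interval in marrow. With library size alone the marrow log2 fold change of Xpc was 0.066 (SE 0.073), so that bound rests on the scaling. Ddb1 (ENSMUSG00000024740, chromosome 19 from 10605327 to 10629819) went from 398 ± 48.2 to 381 ± 82.5 CPM in marrow and from 376 ± 20.2 to 393 ± 15.5 CPM in kidney. The log2 fold changes of Ddb1 were -0.06 (95% interval -0.37 to 0.25) and 0.06 (95% interval -0.07 to 0.20). Oxaliplatin marrow of mouse 3 held the highest Ddb1 value of the 10 marrow libraries, 520 CPM, and the lowest Ddb2 value. Without it the log2 fold change of Ddb1 in marrow was -0.20 (SE 0.11, edgeR adjusted p = 0.168). Per length, Ddb2 was 0.0254 ± 0.00424 of Ddb1 in vehicle kidney and 0.0339 ± 0.00326 in oxaliplatin kidney, with ranges of 0.0203 to 0.0293 and 0.0282 to 0.0362.

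At stalled transcription, Ercc6 (ENSMUSG00000054051, chromosome 14 from 32513521 to 32580990) encodes the CSB protein that starts repair at a blocked RNA polymerase, and its promoter is printed above. In kidney it was measured at 22.2, 25.4, 22.7, 20.6 and 20.8 CPM with vehicle and at 24.01, 25.0, 26.3, 31.3 and 27.6 CPM with oxaliplatin. The upper 3 treated mice lay above all vehicle values, and the other 2 lay below vehicle mouse 2. Ercc6 rose from 22.3 ± 1.95 to 26.8 ± 2.84 CPM (SD, n = 5; log2 0.26, SE 0.09, edgeR adjusted p = 0.0303). The call was lost when vehicle mouse 1, 3, 4 or 5 or oxaliplatin mouse 4 was left out, with the log2 fold change between 0.21 and 0.31 and adjusted p up to 0.0776, and the estimate kept its sign. In marrow it was 45.9 ± 3.06 CPM with vehicle and 41.6 ± 2.21 CPM with oxaliplatin, with 3 treated mice below the vehicle range (log2 -0.14, 95% interval -0.32 to 0.03, edgeR adjusted p = 0.198).

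Of the TFIIH helicase genes, Ercc3 passed the test in kidney. Ercc3 (ENSMUSG00000024382, chromosome 18 from 32240300 to 32270151), which encodes XPB, the helicase that opens the first stretch of the helix, was at 36.7, 38.6, 40.3, 36.1 and 36.8 CPM in vehicle kidneys and at 29.4, 31.1, 34.2, 36.7 and 30.0 CPM in oxaliplatin kidneys. All treated kidneys but that of mouse 4 lay below the vehicle range. Ercc3 went from 37.7 ± 1.72 down to 32.3 ± 3.07 CPM (SD, n = 5), a log2 fold change of -0.22 (SE 0.07, edgeR adjusted p = 0.0311). Without vehicle mouse 2, 3 or 5 or oxaliplatin mouse 1, 2 or 5 the call was lost, with log2 fold changes between -0.26 and -0.18 over the 10 omissions and adjusted p up to 0.0915. It was also lost with library size alone (log2 -0.09), and with the filters of 1 count in any library (adjusted p = 0.0637) and of 10 counts in every library (adjusted p = 0.0512). In marrow Ercc3 was at 38.3 ± 4.25 and 42.5 ± 5.05 CPM (log2 0.15, 95% interval -0.08 to 0.38, edgeR adjusted p = 0.321), and without oxaliplatin mouse 3 its log2 fold change was 0.08. Ercc2 (ENSMUSG00000030400, chromosome 7 from 19382010 to 19395694), which encodes XPD, the helicase that tracks along the strand to the lesion, stayed close to its vehicle level in kidney, at 14.5 ± 1.31 and 14.5 ± 1.44 CPM (log2 0.0011, 95% interval -0.20 to 0.21). In marrow Ercc2 was at 14.5 ± 0.988 and 15.6 ± 1.36 CPM (log2 0.10, 95% interval -0.12 to 0.32). Ercc2 shares 24.6% of its exon bases with the antisense gene Gm26852 and 17.8% with Klc3, so its counts are uncertain to that extent.

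Among the genes for verification and incision, Ercc1 was the member that changed in marrow. Ercc1 (ENSMUSG00000003549, chromosome 7 from 19344778 to 19356524), whose promoter is printed above, encodes the non-catalytic partner of the nuclease that cuts 5′ of the lesion. In marrow it was measured at 9.40, 9.86, 10.7, 11.4 and 10.4 CPM with vehicle and at 12.0, 12.9, 13.0, 16.2 and 11.4 CPM with oxaliplatin. All treated mice lay above all vehicle mice, mouse 5 by a narrow margin, and 24.9% of all genes had groups without overlap in marrow (11.4% higher, 13.5% lower). Ercc1 rose from 10.3 ± 0.757 to 13.1 ± 1.85 CPM (SD, n = 5), a log2 fold change of 0.34 (SE 0.12, 95% interval 0.08 to 0.61, edgeR adjusted p = 0.0480). The call was lost in 8 of 10 omissions of a library, all but those of vehicle mouse 4 and oxaliplatin mouse 5. Over these omissions the log2 fold change lay between 0.26 and 0.43 and the adjusted p between 0.0224 and 0.122. Cd3eap, which shares 3.41% of Ercc1's exon bases on the opposite strand, rose in marrow as well, from 13.7 ± 0.707 to 19.4 ± 3.22 CPM (log2 0.50, edgeR adjusted p = 0.00588). The part of shared reads in the Ercc1 value was not tested.

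In kidney Ercc1 was at 8.25, 8.73, 9.55, 9.18 and 9.76 CPM with vehicle and at 11.2, 10.2, 11.9, 9.40 and 12.2 CPM with oxaliplatin. Only oxaliplatin mouse 4 fell within the vehicle range. The log2 fold change was 0.27 (SE 0.10, 95% interval 0.05 to 0.49), with an edgeR adjusted p of 0.0587, and without oxaliplatin mouse 4 it was 0.33 with an adjusted p of 0.0237. Over all 10 omissions the log2 fold change lay between 0.24 and 0.33 and the adjusted p between 0.0237 and 0.131. Cd3eap in kidney was at 9.40 ± 1.06 and 9.49 ± 1.14 CPM (log2 0.01, edgeR adjusted p = 0.953). Ercc4 (ENSMUSG00000022545, chromosome 16 from 13109684 to 13150617), which encodes XPF, the catalytic subunit that binds ERCC1, did not pass the test in either tissue. Its level was 25.4 ± 2.08 and 27.7 ± 1.60 CPM in marrow (log2 0.13, 95% interval -0.07 to 0.32) and 24.4 ± 0.655 and 23.0 ± 1.82 CPM in kidney (log2 -0.09, 95% interval -0.25 to 0.07). Per length, the ratio of Ercc1 to Ercc4 was 0.807 ± 0.0654 in vehicle kidney and 1.04 ± 0.176 in oxaliplatin kidney, and 0.883 ± 0.0835 and 1.03 ± 0.199 in marrow, with ranges that overlapped in both tissues.

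Ercc5 (ENSMUSG00000026048, chromosome 1 from 44147744 to 44181260) encodes XPG, the nuclease that cuts 3′ of the lesion. In kidney it was at 18.7 ± 2.12 and 21.7 ± 1.82 CPM, with 3 of 5 treated mice above the vehicle range (log2 0.21, 95% interval 0.02 to 0.40, edgeR adjusted p = 0.0949). Vehicle mouse 2 held the highest vehicle value, 22.0 CPM, and without it the log2 fold change was 0.27 with an adjusted p of 0.0327, within a range of 0.0327 to 0.207 over the 10 omissions. In marrow Ercc5 was at 16.6 ± 1.95 and 18.8 ± 2.10 CPM (log2 0.18, 95% interval -0.07 to 0.43, edgeR adjusted p = 0.274). Xpa (ENSMUSG00000028329, chromosome 4 from 46155347 to 46196311), which encodes the scaffold that checks the opened strand, was at 16.1 ± 1.27 and 14.7 ± 3.58 CPM in marrow (log2 -0.13, 95% interval -0.48 to 0.22). Its treated marrow values were 16.6, 16.8, 11.9, 9.84 and 18.1 CPM, with mice 3 and 4 apart from the other 3. In kidney Xpa was at 12.9 ± 1.79 and 12.2 ± 0.668 CPM (log2 -0.08, 95% interval -0.31 to 0.14).

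The spread between mice was itself uneven. In marrow the coefficient of variation of Xpa was 7.89% with vehicle and 24.4% with oxaliplatin, that of Ddb2 9.18% and 23.7%, and that of Ddb1 12.1% and 21.7%. Without oxaliplatin mouse 3 the treated values were 24.3% for Xpa, 11.2% for Ddb2 and 9.3% for Ddb1. The other 7 members lay between 5.31% and 14.1% in both marrow groups. In kidney the coefficients lay between 2.68% and 15.2% in all members and both groups.

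Whether the response differed between tissues was tested for each gene as the tissue by treatment interaction in all 20 libraries. It passed for 3 of 10 members, against 30.1% of 24321 genes (17% with the higher response in marrow, 13.1% with the lower). The response of Ddb2 was lower in marrow than in kidney by a log2 difference of -0.69 (SE 0.22, edgeR adjusted p = 0.0218), and that of Ercc6 by -0.35 (SE 0.12, edgeR adjusted p = 0.0327). For Ercc3 the response was higher in marrow by 0.44 (SE 0.14, edgeR adjusted p = 0.0213). The Ercc3 difference kept its call in all 20 omissions of a library, and the Ddb2 difference in 19, the exception being vehicle marrow mouse 1 (log2 -0.61, adjusted p = 0.0512, the range over omissions being 0.0150 to 0.0512). The Ercc6 difference kept it in 11 of 20 omissions, with values between -0.40 and -0.29. Without oxaliplatin marrow mouse 3 the 3 differences were -0.57 for Ddb2, 0.35 for Ercc3 and -0.37 for Ercc6, with edgeR adjusted p of 0.0263, 0.0388 and 0.0214. Of the members that did not pass, Ercc4 had the largest difference (log2 0.27, 95% interval 0.04 to 0.51, edgeR adjusted p = 0.0753). For Ercc1, which was higher after oxaliplatin in both tissues by its estimates, the difference was 0.13 (95% interval -0.21 to 0.47).

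**Figure D3:**
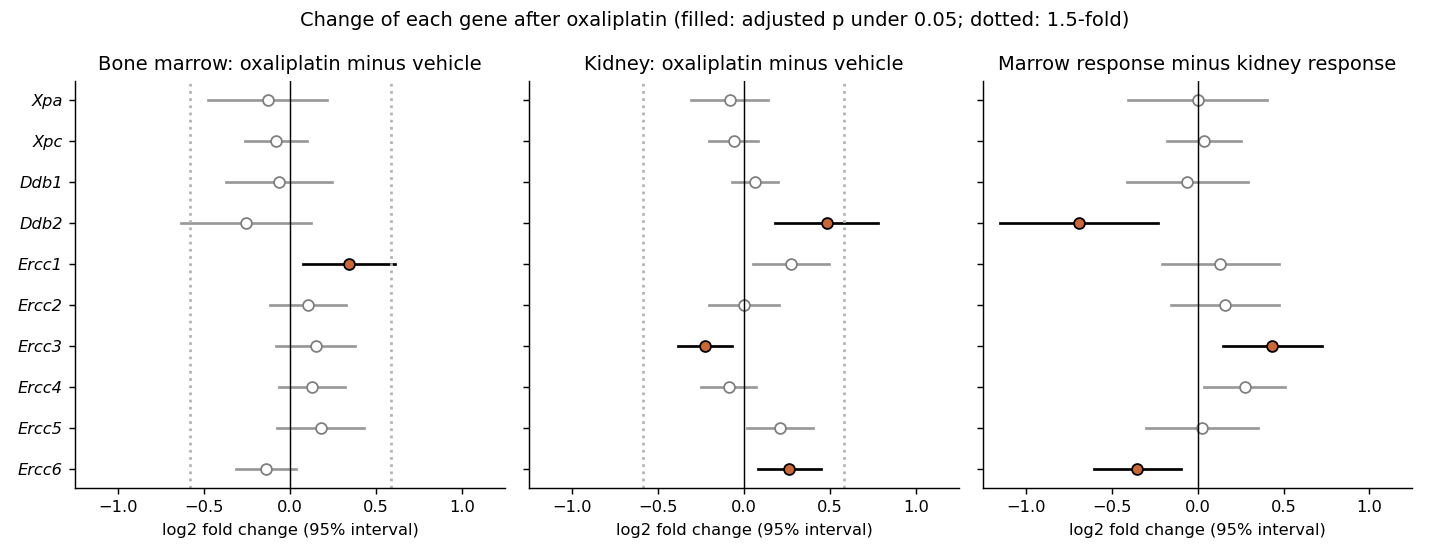
Log2 fold change with its 95% interval for each gene in bone marrow, in kidney, and for the marrow response minus the kidney response. Filled points passed an adjusted p under 0.05 and dotted lines mark 1.5-fold. Ercc1 is the filled point in marrow (0.34), Ddb2, Ercc3 and Ercc6 are filled in kidney (0.48, -0.22 and 0.26) and in the difference (-0.69, 0.44 and -0.35).

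The other 40 genes of the pathway were read by step. In marrow 4 rose and 14 fell (adjusted p under 0.05), where 33.1% of all genes were called, and in kidney 5 rose and 9 fell, where 29.4% were called. With library size alone the split was 10 higher and 11 lower in marrow and 10 higher and 3 lower in kidney, so the balance of directions rests on the scaling. Beyond 1.5-fold, 10 of the 40 passed in marrow and 2 in kidney, against the 23.3% and 11.5% of all genes given above. The median log2 fold change of the 40 was -0.21 in marrow and -0.07 in kidney. The counts of each step below stand against the same shares of all genes. By direction these were 16.3% higher and 16.8% lower in marrow, and 14.4% higher and 15% lower in kidney.

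A partner of the damage sensors fell in marrow by more than any member. Cul4a, the scaffold of the ligase that DDB1 and DDB2 belong to, fell from 241 ± 24.7 to 106 ± 15.3 CPM (log2 -1.18, edgeR adjusted p = 6.28e-06). In the recognition list of 9 genes, which includes Xpc, Ddb1 and Ddb2, 1 gene rose in marrow, Rad23b (log2 0.44), and 2 fell, Cul4a among them. Cul4b, the paralog of Cul4a, had a log2 fold change of 0.09 there (edgeR adjusted p = 0.541). In kidney 1 of the 9 rose, Ddb2, and Cetn2 (log2 -0.30), Rad23b (log2 -0.27) and Cul4a (log2 -0.22) fell. The marrow fall of Cul4a stood beside a fall in 9 of 10 erythroid genes, with summed levels given above, and the part of erythroid cells in it was not tested. Genes named here that did not pass 1.5-fold were chosen after their values were seen.

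In the list for stalled transcription, 1 of 6 genes changed in marrow, Xab2, which fell (log2 -0.32), and 4 of 6 changed in kidney. In kidney Uvssa (log2 0.45) and Ercc6 rose, and Elof1 (log2 -0.36) and Stk19 (log2 -0.29) fell. The 10 TFIIH genes had positive estimates throughout in marrow, as did 10529 of all 22363 genes, with a median log2 fold change of 0.20. Of the 10, Gtf2h1 (log2 0.47) and Gtf2h5 (log2 0.39) rose, 2 called where 33.1% of all genes were. In kidney Gtf2h1 fell by 0.40 and Gtf2h5 by 0.37 on the log2 scale, beside Ercc3, and the median was -0.18. That was 3 of 10 called, where 29.4% of all genes were. Both medians are on TMM scaling. In the list for verification and incision Rpa2 (log2 -0.63) and Rpa3 (log2 -0.44) fell in marrow beside the rise of Ercc1. They encode subunits of the protein that coats the opened strand. In marrow edgeR called 3 of the 7 genes of this list and DESeq2 called 2, without Rpa3. In kidney edgeR called 0 of these 7 genes, 3 had an unadjusted p under 0.05, and DESeq2 called 0.

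Gap filling and ligation was the longest list, with 18 genes. In marrow 9 of 18 genes fell and 1 rose, and the falls beyond 1.5-fold were led by Lig1, the DNA ligase of replication (240.2 ± 28.7 to 126 ± 35.4 CPM, log2 -0.93, edgeR adjusted p = 0.000951), Pcna, the sliding clamp (log2 -0.88), Pole (log2 -0.82) and Pole2 (log2 -0.78). These genes also serve DNA replication, and 12 of 14 cell division genes fell in the same libraries, with sums that did not overlap between groups. Their part in the falls was not tested. In kidney 4 of the 18 rose, Pole (log2 0.60), Polk (log2 0.56), Pold1 (log2 0.44) and Pold2 (log2 0.33), and Pole4 (log2 -0.73) and Rfc2 (log2 -0.21) fell. There 10 of 12 tested cell division genes rose, and the sums lay between 65.9 and 77.2 CPM with vehicle and between 85.7 and 114 CPM with oxaliplatin. Polk, which encodes a polymerase that can fill repair gaps, was the gene of this list that rose in marrow (14.8 ± 1.30 to 23.8 ± 2.88 CPM, log2 0.68, edgeR adjusted p = 0.000366), and in kidney it went from 11.5 ± 1.14 to 17.0 ± 2.11 CPM (edgeR adjusted p = 0.000767).

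**Figure D4:**
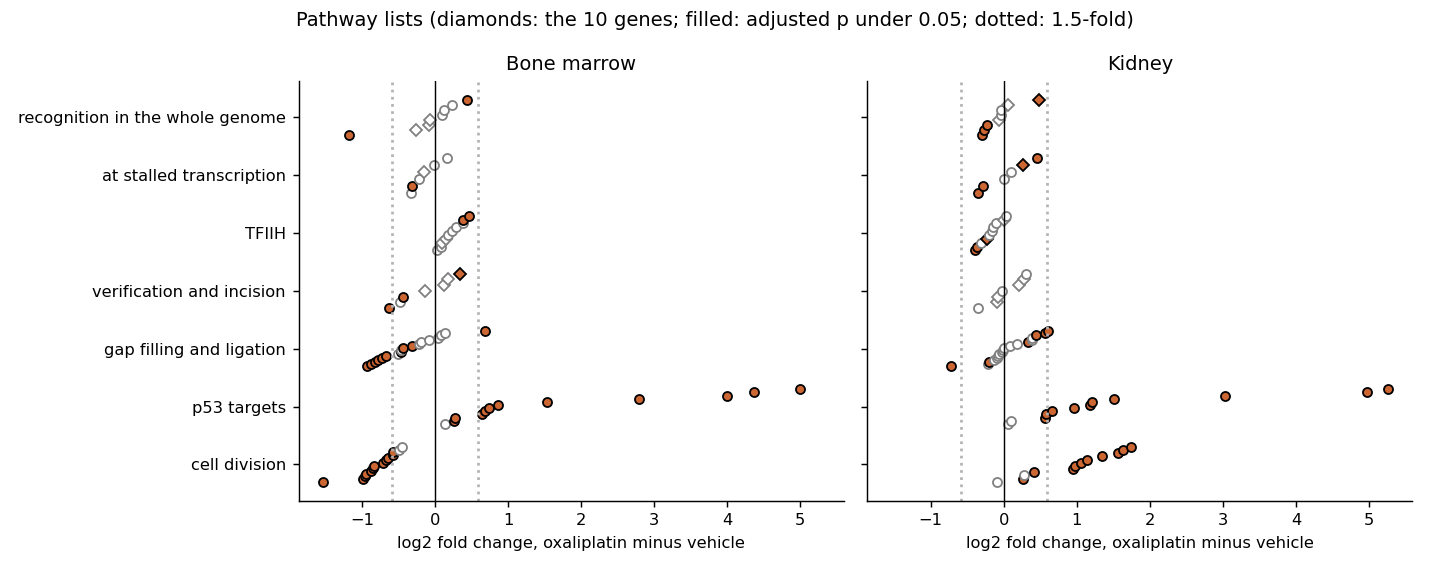
Log2 fold change of genes of the pathway lists, of 12 p53 targets and of 14 cell division genes (12 in kidney). Diamonds are the 10 members, filled points passed an adjusted p under 0.05, and dotted lines mark 1.5-fold. On TMM scaling the members stay within 1.5-fold in both tissues, while Cul4a lies at -1.18 in marrow. Of the 12 p53 targets, 11 in marrow and 10 in kidney are filled to the right of 0.

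Since DDB2 and XPC are p53 targets in human cells, a list of 12 other p53 targets was read beside them. Of these 11 rose in marrow and 10 in kidney, with median log2 fold changes of 0.80 and 1.07. Of all genes tested, 16.3% rose in marrow and 14.4% in kidney. The list includes Polk, which is also in the gap filling list. The median of the members lay near that of all genes in both tissues, as given above. Ddb2 in kidney was the member called in the same direction as these targets with the largest change. In marrow the log2 estimate of Ddb2 was -0.26, and that of Xpc was -0.08 in marrow and -0.06 in kidney. None of these estimates passed the test. The 12 genes were chosen with their response in these libraries known, so their rise is a description.

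For the member with the largest called change in each tissue, the genes with the most similar pattern were found by Pearson's r of log2 CPM over the 10 libraries. For Ercc1 in marrow these were BC034090 (r = 0.970), Gla (r = 0.964) and Cxcl16 (r = 0.955) among 14648 genes. For Ddb2 in kidney they were Rrad (r = 0.969), Igfbp3 (r = 0.964) and Pde4b (r = 0.964) among 13634 genes. The points share the 2 treatment groups, so part of each r is the difference between them.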

How the data were processed

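RNA-seq of 20 libraries (5 mice per tissue and treatment) was used. Per the methods, the authors mapped reads by STAR against Ensembl release 101 of mouse, kept uniquely mapping reads that fell in 1 gene, and deposited raw counts per gene that were not normalized. The submitters' processing notes also name bcl2fastq, Subread, featureCounts and Salmon. Library chemistry is given as a SMARTer kit in the methods and as ribosomal RNA removal with random hexamers in the sample records. Each table held 55774 lines, from which 287 repeated identifiers and 1 incomplete line were dropped.

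Genes were filtered by filterByExpr (minimum count 10), scaled by TMM and tested within tissue in edgeR 4.0.16 under R 4.3.3 by a two-sided quasi-likelihood test (robust option, limma 3.58.1) with Benjamini-Hochberg adjustment over all tested genes, and a gene was called at an adjusted p under 0.05. Adjusted p values are from edgeR except where DESeq2 is named. Tissues were compared in a single edgeR fit of all 20 libraries. RPKM used exon lengths of GENCODE mouse release 21 (GRCm38), which covers 55227 identifiers. Alternatives are given in the closing section, among them DESeq2 1.42.0. The steps were also run on simulated data with the same spread between libraries for every gene. Those data lacked the wide shifts seen in marrow, so that run does not bear on the small changes of the members. Figures were drawn with matplotlib.

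At these depths 3 counts, taken as a floor, correspond to 0.0668 to 0.0975 CPM in marrow and 0.0900 to 0.130 CPM in kidney, which covers counting error only. Libraries of a group differed by a chi-square per degree of freedom of at least 7.51. The members and lists were chosen with earlier results of these data known. By the rule for naming, genes were the 10 members, pathway genes past 1.5-fold (up to 4 per list and tissue), genes overlapping a member, and the 3 nearest patterns. Other pathway genes named in the text were chosen after their values were seen. A pathway gene that entered the list counts is not reported here by name or in the figures. The methods name both sexes, but Y-linked transcripts were present in all 20 libraries, at 75.5 to 177 CPM, and the labels give no sex. Xist had 0 to 19 counts in kidney libraries and 28 to 100 in marrow libraries. The covariate of Y-linked genes used below therefore does not separate males from females.

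Counts for part of the cell type lists are stated here. Kidney cell lists in marrow, and in kidney the muscle list and blood cell lists other than macrophage, are left out. Of all genes tested, 16.3% rose and 16.8% fell in marrow, and 14.4% rose and 15% fell in kidney. In marrow 7 of 8 B lymphoid and 2 of 6 T and NK genes fell, 6 of 8 macrophage, 6 of 6 adipocyte and 5 of 6 skeletal muscle genes rose, and of 8 neutrophil genes 0 were called by edgeR or by DESeq2, with 0 at an unadjusted p under 0.05. In kidney 5 of 8 macrophage genes fell and 1 rose, 2 proximal tubule genes rose and 3 fell of 8, and 4 of 4 podocyte, 4 of 5 adipocyte, 2 of 5 collecting duct, 1 of 4 loop of Henle and distal tubule, and 2 of 5 tubular injury genes rose.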

Additional observations from a re-analysis of the deposited data

Results flagged for a closer look

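The response to oxaliplatin differed between bone marrow and kidney for 3 members, by the test of the interaction itself (edgeR, n = 5 mice per group), a share like the 30.1% of all 24321 genes that passed it. The log2 difference, marrow minus kidney, was -0.69 for Ddb2, 0.44 for Ercc3 and -0.35 for Ercc6. For Ddb2 the estimate was 0.48 in kidney and -0.26 in marrow, for Ercc6 0.26 and -0.14, and for Ercc3 -0.22 and 0.15. The marrow estimate of Ddb2 was -0.12 without oxaliplatin mouse 3. The difference kept its call with each library left out for Ercc3, in 19 of 20 omissions for Ddb2 and in 11 of 20 for Ercc6. With a filter of 1 count in any library only the Ercc3 difference kept it. Only the kidney estimates of these genes passed the test within a tissue. In each of the 40 sets of 5 mice (10 genes in 4 groups) the highest and lowest mouse were compared with the others by Dixon's ratio of gap to range, which chance exceeds in about 1 of 20 groups, and 0 of 40 exceeded the critical value of 0.71.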

How the results depend on the processing

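The number of changed members moved with several settings, as did the share of all genes called, from 17.4% (1-count filter) to 37.3% (10 counts in every library) in marrow and from 15% to 32.7% in kidney under the same filters. In marrow (1 changed) it was 3 with library size alone (Ercc1, Ercc3 and Ercc4), 0 with a filter of 1 count in any library, 0 beyond 1.5-fold, 0 in a test against 1.2-fold and 0 to 1 with a library left out, and it stayed at Ercc1 with DESeq2, its size factors, at least 10 counts in every library, a covariate of Y-linked genes, or hemoglobin genes left out. In kidney (3 changed) it was 5 with library size alone (Ddb1, Ddb2, Ercc1, Ercc5 and Ercc6), 2 with the filter of 1 count (without Ercc3), 0 beyond 1.5-fold, 0 in a test against 1.2-fold and 1 to 3 with a library left out. Ercc1 took the place of Ercc3 with at least 10 counts in every library and that of Ercc6 with the Y-linked covariate. The interaction (3 members) gave 1 with the filter of 1 count, Ercc3, and 1 to 3 with a library left out. With that filter the edgeR adjusted p was 0.0562 for Ddb2 and 0.115 for Ercc6. Vehicle marrow against kidney (8 members) gave 4 with library size alone, 4 with at least 10 counts in every library (Ddb2, Ercc6, Ercc5 and Xpc) and 8 to 8 with a library left out. Beyond 1.5-fold, the other pathway genes numbered 10 in place of 18 in marrow and 2 in place of 14 in kidney.

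Replicate numbers were not treated as pairing the libraries. Within a tissue, same-numbered vehicle and oxaliplatin libraries come from different mice. Their deviations correlated between -0.12 and 0.23 in marrow and between -0.15 and 0.08 in kidney. Between marrow and kidney, same-numbered libraries correlated between -0.094 and 0.048 with vehicle and between -0.082 and 0.21 with oxaliplatin. Not every library correlated best with its own number. The labels do not state whether same-numbered marrow and kidney libraries share a mouse. With the replicate block 0 members were called in marrow, 1 in kidney (Ddb2), 2 in the interaction (Ercc3 and Ddb2) and 8 with vehicle.

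Within tissues and in the interaction, signs turned only for members that had not passed the test. With library size alone these were, in marrow, Xpa (0.0056), Xpc (0.066), Ddb1 (0.089) and Ercc6 (0.00092), in kidney Xpa (0.051), Xpc (0.072) and Ercc4 (0.046), and in the interaction Xpa (-0.046), Xpc (-0.0064) and Ercc5 (-0.020). At least 10 counts in every library turned the interaction of Xpa (-0.10), Xpc (-0.070) and Ercc5 (-0.083), and the block that of Xpa (-0.033). Ercc2 in kidney was -0.013 with DESeq2 and -0.0061 with its size factors. The difference of vehicle marrow from kidney turned with library size alone for Xpa (0.31), Ddb1 (0.072), Ercc1 (0.18), Ercc3 (0.014) and Ercc4 (0.050), of which Ddb1, Ercc3 and Ercc4 had passed the test, and with at least 10 counts in every library for Xpa (0.11). With a library left out, the log2 change of Ddb1 in marrow ranged from -0.20 to 0.054 and that of Ercc2 in kidney from -0.052 to 0.050, and interactions ranged from -0.042 to 0.13 for Xpa, -0.23 to 0.058 for Ddb1 and -0.053 to 0.12 for Ercc5. The cause of these shifts was not tested.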
